A study of Mus musculus with 48 samples.

Results

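The 10 genes described here are *Tsc22d3*, *Fkbp5*, *Zbtb16*, *Sgk1*, *Arrdc2*, *Rgs2*, *Angptl4*, *Lcn2*, *Crispld2* and *Slc10a6*, a set named as glucocorticoid-type targets with higher RNA levels under cycloheximide. All 23 probe sets listed under their symbols were taken, of 34945 probe sets with 1 gene, and the brightest one on average stands for its gene, giving 10 of 18193 genes. The cells were C2C12, an established mouse myoblast line that fuses into myotubes when serum is lowered, on Affymetrix MOE430v2 arrays. Untreated cells were sampled in growth medium with 20% fetal bovine serum 24 h before the medium change and at 0 h, and in differentiation medium with 2% horse serum at 0.5, 1, 1.5, 2, 3, 6, 9, 12, 24, 48, 96 and 144 h. Cycloheximide, an inhibitor of protein synthesis, was given to other cells at 50 µM from 1 h before the medium change, and these were sampled at 1 h and 3 h in differentiation medium, after 2 h and 4 h in the drug. All 16 groups held 3 arrays, from growths of successive passages of 1 cell line, so the spread between them is that between passages and arrays. The labels name no added glucocorticoid and no drug-treated cells at 0 h.

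Glucocorticoids bind the glucocorticoid receptor, encoded by *Nr3c1*, which moves from chaperone complexes in the cytoplasm to the nucleus and binds DNA at palindromic elements made of AGAACA and its inverted partner. Many of its direct target genes are transcribed without new protein synthesis, and in muscle the hormone is known for its catabolic action. Cycloheximide is also known to raise many short-lived RNAs that growth factors, stress or cyclic AMP induce, and several of the 10 genes respond to such signals too. The members were chosen on the cycloheximide contrasts, so the levels at 1 h and 3 h with and without the drug are a description and carry no test. The tests below use untreated cells at other times.

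Promoter sequences were taken from RefSeq (GRCm38.p6), as windows from 250 bases before to 50 bases after each start. The table held 15 windows for 8 of the 10 genes, with 6 for *Sgk1* and 3 for *Tsc22d3*. The full palindrome, AGAACA then any 3 bases then TGTTCT, searched on both strands like all letters below, was present in 3 of 32851 windows (0.00913%), and 1 of these was an *Sgk1* window. The shorter form, AGAACA then any 3 bases then TGT, which the palindrome contains, was in 0.414% of all windows. It was in 2 of the 15 windows of the members, 1 each of *Sgk1* and *Slc10a6*. The core ACANNNTGT, contained in both, was in 6.85% of windows and in 4 of the 15, of *Sgk1*, *Slc10a6* and *Lcn2*. The half-site AGAACA was in 19.0% of windows and in 5 of the 15, of *Sgk1*, *Slc10a6* and *Tsc22d3*. Of cyclic AMP and AP-1 letters, TGACGTCA (1.79% of windows) and TGAGTCA (5.2%) were in no window of the members. TGACG, which the first contains, was in 20.8% of windows and in 3 of the 15, of *Rgs2*, *Sgk1* and *Tsc22d3*. A match is a description of letters, not a shown binding site.

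The windows of *Arrdc2*, *Crispld2*, *Fkbp5* and *Rgs2* held none of the receptor-type letters, and no relation between letters and levels was tested. The first pair below are the windows with the longest receptor-type matches, *Lcn2* is shown as a window with the core only, and *Rgs2* as one with the cyclic AMP letters. Capitals mark the full palindrome in *Sgk1* (chr10:21993640-21993939, plus strand, 189 to 175 bases before the start), the shorter form in *Slc10a6* (chr5:103629354-103629653, minus strand, 164 to 153 before), ACANNNTGT in *Lcn2* (chr2:32387690-32387989, minus strand, 152 to 144 before) and TGACG on either strand in *Rgs2* (chr1:144004100-144004399, minus strand, 185 to 181 and 67 to 63 before). All are written 5′ to 3′ on the gene's strand.
Sgk1: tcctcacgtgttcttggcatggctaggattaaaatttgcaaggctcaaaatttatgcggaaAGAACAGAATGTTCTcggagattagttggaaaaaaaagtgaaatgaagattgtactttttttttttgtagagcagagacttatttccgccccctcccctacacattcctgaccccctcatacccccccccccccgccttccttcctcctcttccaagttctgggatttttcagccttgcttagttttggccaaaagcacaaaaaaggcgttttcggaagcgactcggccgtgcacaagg
Slc10a6: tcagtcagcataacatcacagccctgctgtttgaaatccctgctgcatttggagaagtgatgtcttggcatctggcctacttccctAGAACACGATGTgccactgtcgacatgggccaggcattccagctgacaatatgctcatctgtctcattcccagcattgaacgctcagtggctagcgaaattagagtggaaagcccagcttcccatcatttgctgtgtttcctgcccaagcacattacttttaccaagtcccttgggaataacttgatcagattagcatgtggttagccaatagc
Lcn2: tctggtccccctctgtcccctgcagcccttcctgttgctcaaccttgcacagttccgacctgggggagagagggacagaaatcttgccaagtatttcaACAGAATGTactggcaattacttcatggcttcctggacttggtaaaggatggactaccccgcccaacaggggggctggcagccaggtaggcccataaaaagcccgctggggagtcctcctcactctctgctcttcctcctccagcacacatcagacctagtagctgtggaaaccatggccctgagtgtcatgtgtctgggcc
Rgs2: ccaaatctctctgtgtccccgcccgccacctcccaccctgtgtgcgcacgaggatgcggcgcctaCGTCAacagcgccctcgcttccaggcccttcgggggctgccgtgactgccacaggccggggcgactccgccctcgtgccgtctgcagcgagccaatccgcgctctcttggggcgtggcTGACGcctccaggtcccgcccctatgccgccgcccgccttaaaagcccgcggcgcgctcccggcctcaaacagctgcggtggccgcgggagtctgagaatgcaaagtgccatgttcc

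The 6 cycloheximide arrays lay on a higher distribution than the others. Array medians ran from 4.20 to 4.24 with the drug and reached at most 4.16 without it, and upper quartiles from 6.79 to 6.88 and from 6.17 to 6.59. The median of all genes therefore differed by 0.20 log2 units at 1 h and 0.19 at 3 h, which became -0.01 and -0.02 after the 48 arrays were quantile normalized again. Differences with the drug are given as deposited, with the requantiled value beside them. Of 5 myoblast markers, *Myod1*, *Des*, *Cdh15* and *Itga7* read 7.82 or more on all arrays, while *Myf5* went from 8.15, 8.42 and 8.47 at 0 h to 6.45, 5.45 and 5.66 at 144 h. The mean of 5 myotube markers ran from 4.98 to 5.06 at 24 h before the medium change, from 6.69 to 8.54 at 0 h and from 12.01 to 12.50 at 144 h. Of 4 leukocyte and 4 adipocyte markers, 6 read 4.46 or less on all arrays, among them *Ptprc* (2.97 to 3.80) and *Adipoq* (2.77 to 3.36), but *Cd3e* read 4.93 to 6.08 and *Retn* 4.40 to 5.27, above the array medians. In such bulk samples a lower level cannot be told apart from fewer cells expressing the gene.

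Of the 10 genes, 4 were at least 2-fold higher with cycloheximide at 1 h, against 1.86% of all genes (0.737% after renewed normalization, still 4 members). At 3 h there were 7 of 10, against 6.23% of all genes (3.47%, still 7). The median difference of the members was 0.77 log2 units at 1 h and 3.24 at 3 h. The drug and untreated arrays did not overlap, with the drug higher, in 9 of 10 members at each time, against 37.3% and 43.2% of all genes. These counts restate how the genes were chosen. The data went against the name of the set for the brightest probe set of *Zbtb16*, and *Angptl4* stayed under 2-fold. *Lcn2* was under 2-fold too, but its only probe set lay near the bottom of the range (untreated mean 3.03). It therefore cannot decide on that gene.

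**Figure D1:**
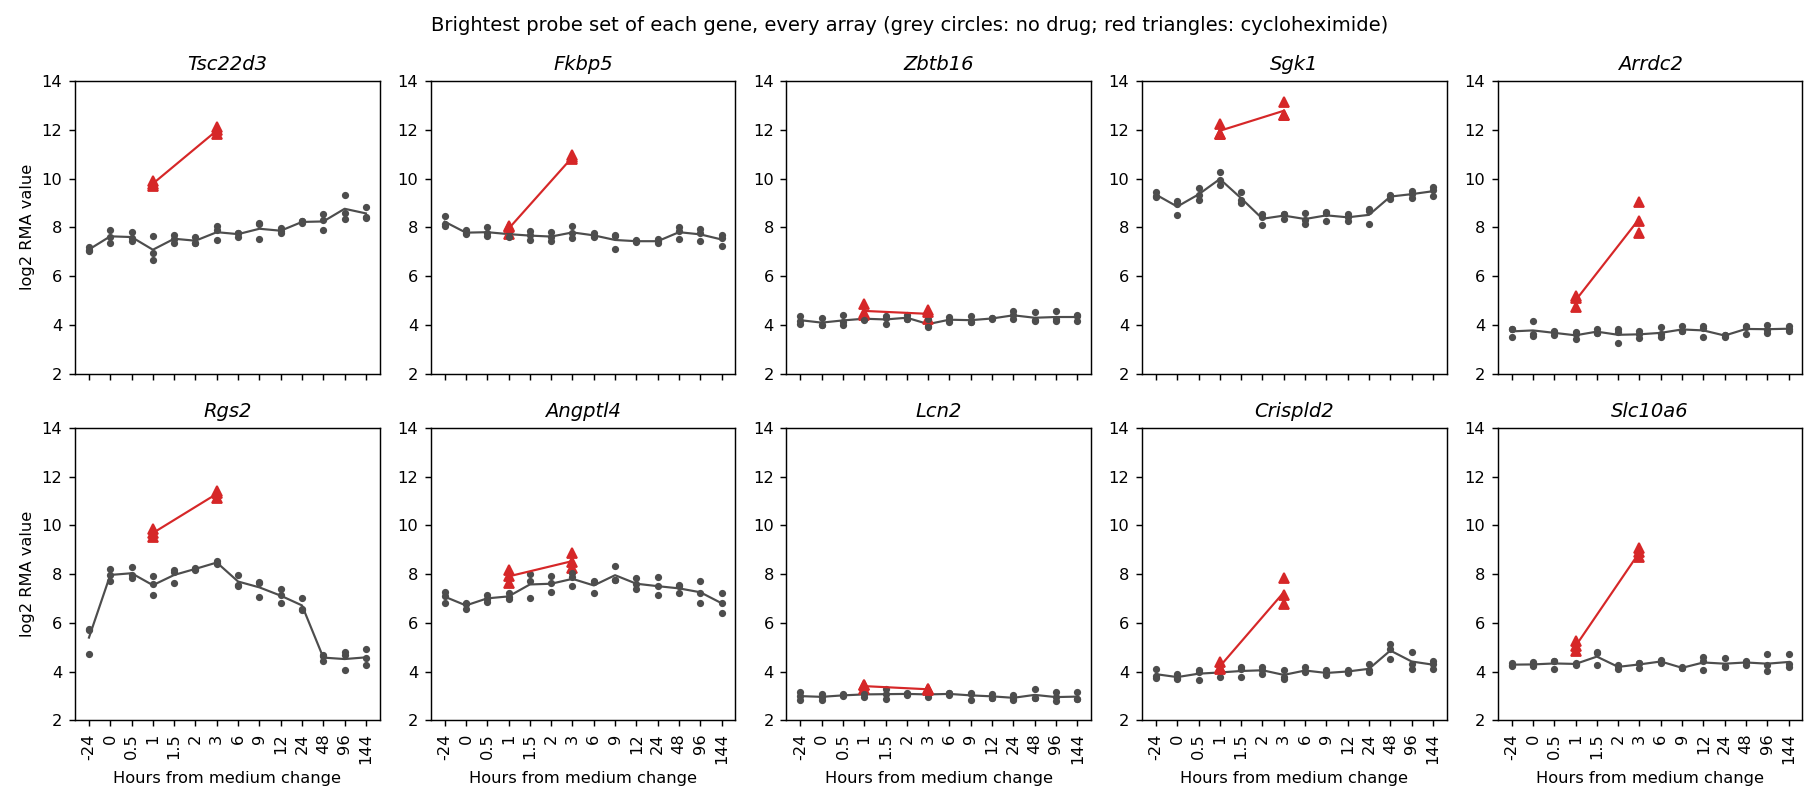
Level of each gene's brightest probe set on every array (log2 RMA value) against hours from the medium change, on an evenly spaced axis of sampling times. Grey circles are untreated arrays with a line through the group means, and red triangles are cycloheximide arrays; at 3 h the drug arrays of Tsc22d3, Fkbp5, Sgk1, Arrdc2, Rgs2, Crispld2 and Slc10a6 stand above all 42 untreated arrays.

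*Tsc22d3* encodes GILZ, a leucine zipper protein that restrains inflammatory transcription factors and is a standard glucocorticoid target. At 1 h its untreated arrays read 7.64, 6.67 and 6.93, and the drug arrays 9.88, 9.71 and 9.77. At 3 h the untreated arrays read 7.90, 8.04 and 7.46 and the drug arrays 12.10, 11.98 and 11.83. All 6 drug arrays lay above all 42 untreated arrays, whose highest was 9.33. The difference was 2.70 (SE 0.21, 2.49 requantiled) at 1 h and 4.17 (4.15 requantiled) at 3 h, which is 18-fold. The drug groups also stood above 0 h, by 2.16 and 4.34, so that the untreated 1 h level, itself 0.54 below 0 h, gave only a small part of the first difference. Its probe sets disagreed. The probe set 1420772_a_at followed the brightest, but 1425557_x_at differed by only 0.28 and 0.41 (-0.10 and 0.08 requantiled) and 1444365_at by 0.23 and 0.44. The last was dim, with an untreated mean of 3.65.

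*Fkbp5* encodes a co-chaperone of Hsp90 that lowers the receptor's affinity for hormone and is itself a receptor target, a feedback loop. Its 1 h arrays read 7.75, 7.81 and 7.60 without the drug and 7.74, 8.06 and 8.01 with it, so the groups overlapped. At 3 h the untreated arrays read 7.75, 8.05 and 7.55, and the drug arrays 10.97, 10.87 and 10.81. The gene was thus flat after 2 h in the drug and high after 4 h. The difference was 0.22 (SE 0.15, -0.10 requantiled) at 1 h and 3.10 (3.04 requantiled) at 3 h, 8.55-fold. The probe set 1448231_at gave 0.32 and 2.89, but 1447736_at only 0.10 and 0.12. The latter lay near the bottom of the range, with an untreated mean of 2.81 and 0.6% of genes below it.

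*Zbtb16* encodes PLZF, a zinc finger repressor that glucocorticoids induce in several human cell types. Its brightest probe set read 3.97, 4.25 and 3.89 at 3 h without the drug and 4.23, 4.54 and 4.59 with it. The 2 groups overlapped, and the difference was 0.42 (0.20 requantiled), after 0.32 (0.10 requantiled) at 1 h. A dimmer probe set, 1439163_at, read 3.18, 3.08 and 3.36 at 3 h without the drug and 4.22, 4.36 and 4.27 with it. Here the groups were separate, with a difference of 1.07 (0.88 requantiled) at 3 h and 0.06 at 1 h. The third, 1419874_x_at, differed by 0.37 and 0.31, but lay near the bottom of the range (untreated mean 2.91).

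*Sgk1* encodes a kinase that regulates ion transport and is induced by serum and glucocorticoids. Its untreated arrays read 9.75, 9.94 and 10.25 at 1 h, a transient high, and 8.34, 8.56 and 8.53 at 3 h. With the drug they read 11.81, 11.83 and 12.25 at 1 h and 12.61, 12.59 and 13.14 at 3 h. The difference was 1.98 (SE 0.18, 1.89 requantiled) at 1 h and 4.30 (4.28 requantiled) at 3 h, 19.7-fold. Against 0 h the drug groups stood 3.11 and 3.92 higher, while the untreated cells stood 1.13 higher at 1 h and 0.38 lower at 3 h. Most of the growth of the difference from 1 h to 3 h therefore came from the untreated side, since the drug groups themselves differed by 0.81.

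*Arrdc2* encodes an arrestin domain protein of a family that acts as adaptors in membrane protein trafficking. Untreated arrays ran from 3.25 to 4.15 over the whole course. With the drug they read 5.18, 5.10 and 4.73 at 1 h and 9.03, 8.27 and 7.77 at 3 h. All 6 lay above every untreated array. The difference was 1.44 (SE 0.19, 1.18 requantiled) at 1 h and 4.74 (4.39 requantiled), or 26.8-fold, at 3 h, the largest of the 10 members at 3 h.

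*Rgs2* encodes a protein that switches off Gq-type G protein signalling. Its untreated arrays read 7.16, 7.91 and 7.58 at 1 h and 8.55, 8.40 and 8.48 at 3 h. The drug arrays read 9.84, 9.51 and 9.71 at 1 h and 11.42, 11.13 and 11.35 at 3 h, all above the untreated maximum of 8.55. The difference was 2.14 (SE 0.22, 1.91 requantiled) at 1 h and 2.82 (2.79 requantiled), or 7.08-fold, at 3 h. Among its other probe sets, 1419248_at (2.30 and 2.79) and 1447830_s_at (2.26 and 2.75) followed. The dim 1443250_at (untreated mean 3.29) differed by 0.76 and 0.68.

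*Angptl4* encodes a secreted inhibitor of lipoprotein lipase. Its arrays read 6.99, 7.08 and 7.21 at 1 h without the drug and 7.62, 7.92 and 8.19 with it. At 3 h they read 7.51, 8.05 and 7.88 without it and 8.26, 8.85 and 8.50 with it. The groups were separate at both times by less than 1 log2 unit, with differences of 0.82 (SE 0.24, 0.50 requantiled) and 0.72 (0.44 requantiled). The untreated cells had themselves moved 1.09 above 0 h by 3 h, and the drug group stood 1.81 above it. The probe set 1453410_at differed by -0.09 at both times. It lay near the bottom of the range, with an untreated mean of 2.97 and 2.9% of genes below it.

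*Lcn2* encodes lipocalin 2, a secreted protein that binds bacterial siderophores and rises in inflammation. Its untreated arrays stayed between 2.78 and 3.31, and the drug arrays read 3.29, 3.45 and 3.47 at 1 h and 3.29, 3.29 and 3.25 at 3 h. No drug array at 3 h exceeded the highest untreated array. The differences, 0.33 (0.20 requantiled) and 0.21 (0.06 requantiled), were close to the shift of the median of all genes. This only probe set of *Lcn2* lay near the bottom of the range, with an untreated mean of 3.03 and 4.3% of genes below it. It cannot decide whether the gene responds.

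*Crispld2* encodes a secreted protein with cysteine-rich secretory and LCCL domains. It read 4.05, 4.08 and 3.79 at 1 h without the drug and 4.39, 4.15 and 4.12 with it. At 3 h it read 3.79, 4.09 and 3.72 without the drug and 7.85, 7.14 and 6.78 with it. As with *Fkbp5*, the level was near that of untreated cells at 1 h and above all untreated arrays at 3 h. The difference was 0.24 (SE 0.18, 0.07 requantiled) and then 3.39 (2.97 requantiled), 10.5-fold. The other probe sets at 3 h gave 2.10 (1434758_at) and 1.26 (1460458_at).

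*Slc10a6* encodes a sodium-dependent carrier of sulfated steroids. Its untreated arrays stayed between 4.02 and 4.80. The drug arrays read 5.28, 4.83 and 5.04 at 1 h, just above that range, and 8.93, 8.71 and 9.07 at 3 h. The difference was 0.73 (SE 0.15, 0.46 requantiled) at 1 h and 4.60 (4.28 requantiled), or 24.3-fold, at 3 h.

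The members thus differed in timing. *Sgk1* had most of its departure from 0 h by 1 h with the drug, and *Rgs2* stood 1.72 above 0 h at 1 h and 3.33 at 3 h, while *Fkbp5*, *Crispld2*, *Slc10a6* and *Arrdc2* gained 2.95, 3.04, 3.85 and 3.35 log2 units between 1 h and 3 h. *Tsc22d3* gained 2.18 and *Rgs2* 1.62 in that interval. By size of the difference at 1 h, *Tsc22d3* ranked 7 of 18193 genes, *Rgs2* 31, *Sgk1* 40 and *Arrdc2* 104. At 3 h *Arrdc2* ranked 6, *Slc10a6* 7, *Sgk1* 15, *Tsc22d3* 17, *Crispld2* 37, *Fkbp5* 53 and *Rgs2* 67, whereas *Angptl4* ranked 2079, *Zbtb16* 4434 and *Lcn2* 8436.

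**Figure D2:**
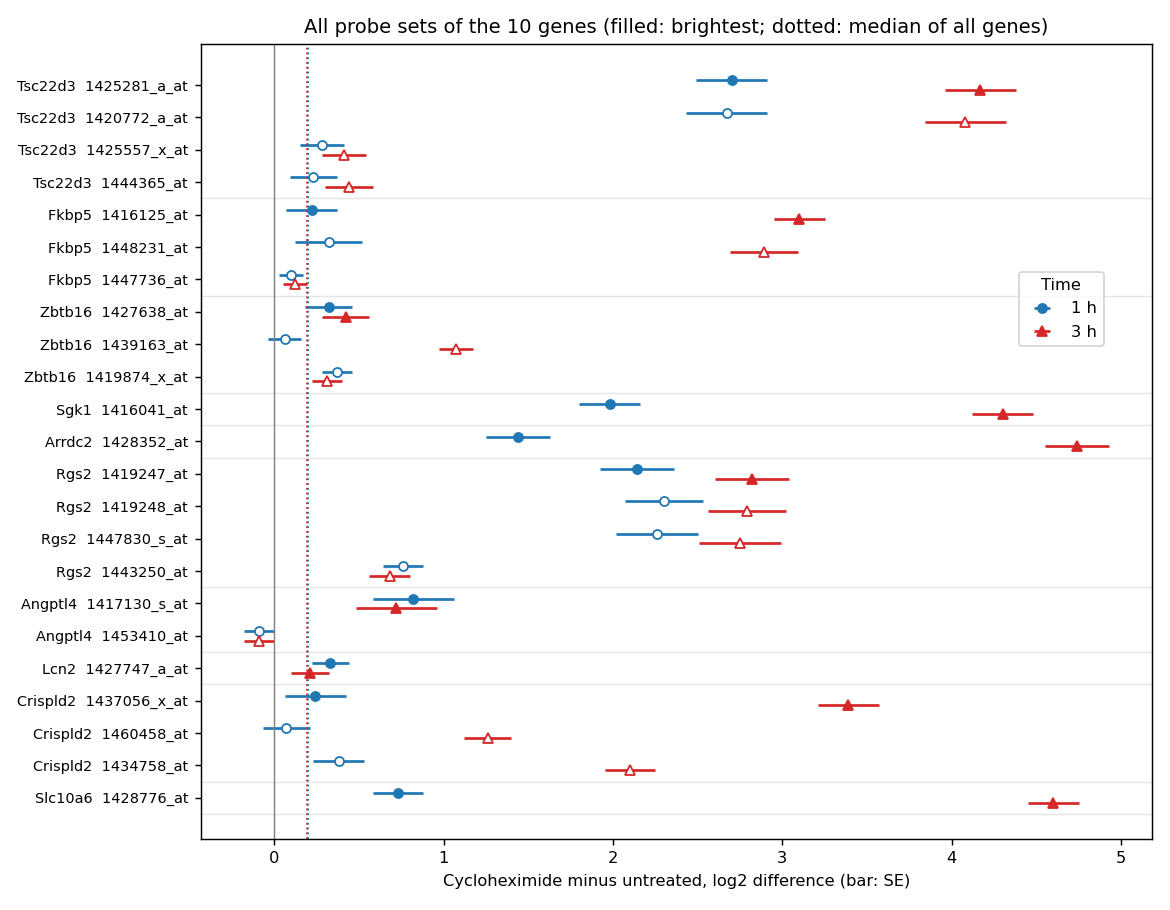
Cycloheximide minus untreated (log2 difference with its SE) for all 23 probe sets at 1 h (blue circles) and 3 h (red triangles), with filled symbols for each gene's brightest probe set. Dotted lines mark the medians of all genes, 0.20 and 0.19, and Lcn2 lies near them. Tsc22d3, Fkbp5, Zbtb16, Rgs2 and Angptl4 have probe sets that disagree. Of these, 1447736_at (Fkbp5), 1419874_x_at (Zbtb16) and 1453410_at (Angptl4) lie near the bottom of the range, with untreated means of 2.81, 2.91 and 2.97. Dim too are 1443250_at (Rgs2), 1439163_at (Zbtb16) and 1444365_at (Tsc22d3), at 3.29, 3.36 and 3.65.

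The time course without the drug was tested at times that share no array with the cycloheximide contrasts. Since earlier results of these data were known when the genes were chosen, these tests may not be fully independent of that choice. Over 10 times against 0 h, 5 of the 10 genes changed by limma's F-test (adjusted over 18193 genes), against 37.1% of all genes. They were *Rgs2* (adjusted p = 3.27e-20), *Sgk1* (2.15e-08), *Tsc22d3* (2.95e-06), *Crispld2* (0.000395) and *Angptl4* (0.000662). The F-test did not call *Fkbp5* (0.156), *Slc10a6* (0.437), *Zbtb16* (0.765), *Arrdc2* (0.917) or *Lcn2* (0.92). The group means of *Arrdc2* and *Slc10a6*, which had the largest differences with the drug at 3 h, spanned 0.28 and 0.46 log2 units over the 14 untreated groups.

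*Rgs2* had the largest changes of the 10. Its arrays read 4.74, 5.75 and 5.70 at 24 h before the medium change and 8.23, 7.72 and 7.96 at 0 h. It rose by 2.57 log2 units in growth medium (SE 0.22, limma adjusted p = 3.02e-10), 5.95-fold. In that comparison 2 of the 10 genes changed, against 13.1% of all genes. At 24 h in differentiation medium the arrays read 7.03, 6.59 and 6.53, and at 48 h 4.63, 4.67 and 4.45. By then all 3 arrays were below those of 24 h before the medium change. The fall against 0 h was -1.25 at 24 h (limma adjusted p = 0.000112), -3.39 at 48 h (1.35e-14), -3.45 at 96 h (4.16e-15) and -3.38 at 144 h (5.28e-15). These calls held in every alternative run. The fall of -0.85 at 12 h (limma adjusted p = 0.0265) was lost after renewed quantile normalization (0.0518). It was also lost without array 1 or 3 of 0 h or array 2 or 3 of 12 h (0.0789 to 0.178). With the replicate number as a block its adjusted p was 0.0156.

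*Fkbp5* fell while the cells were still in growth medium. It read 8.46, 8.15 and 8.06 at 24 h before the medium change and 7.71, 7.88 and 7.75 at 0 h, groups that did not overlap. The difference was -0.45 (SE 0.15, limma adjusted p = 0.0371). The call was lost without array 1 or 2 of the earlier time or array 1 or 3 of 0 h (0.0512 to 0.285), with the mean of its probe sets (0.249) and after centring on housekeeping genes (0.171). *Sgk1* (-0.48, adjusted p = 0.0667) and *Tsc22d3* (0.53, adjusted p = 0.089) were not called there. *Tsc22d3* passed with housekeeping centring (0.67, 0.00649), the replicate block (0.0158), the mean of probe sets (0.35, 0.0407) and only the arrays compared (0.0376), and *Sgk1* with the block (0.0214), the filter on low means (0.042) and without array 3 of 0 h (-0.60, 0.0385).

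*Angptl4* was the only member called before 12 h. At 0.5, 1.5, 2 and 6 h no member changed by limma's test, although 1, 2, 2 and 2 of them had an unadjusted p under 0.05. All genes gave 0.0385%, 0.423%, 0.517% and 0.506% at those times. With the replicate number as a block, *Angptl4* alone was called at 1.5 h (0.86, adjusted p = 0.00798), 2 h (0.89, 0.00406) and 6 h (0.82, 0.00781). Its arrays read 6.56, 6.79 and 6.82 at 0 h and 7.77, 8.35 and 7.75 at 9 h. Every array of 9 h lay above those of 0 h, a rise of 1.23 (SE 0.24, limma adjusted p = 0.00387), when 1.36% of all genes changed. It remained higher at 12 h (0.89, 0.0314), 24 h (0.78, 0.0227) and 48 h (0.70, 0.0258), and by 144 h it read 6.40, 7.21 and 6.81, a difference of 0.08. At 96 h its 0.53 was not called (adjusted p = 0.0854), but it passed with the block (0.0172), after renewed quantile normalization (0.67, 0.0416) and without array 1 of 96 h (0.76, 0.023). All these calls rest on 1417130_s_at. The other probe set, 1453410_at, differed by -0.01 at 9 h, but its untreated mean of 2.97 was near the bottom of the range. It therefore cannot decide on them. Single arrays ended the later calls, namely any array of 0 h or array 2 or 3 of 12 h at 12 h, array 1 of 0 h or 2 or 3 of 24 h at 24 h, and array 1 of 0 h or 1 or 3 of 48 h at 48 h (0.0538 to 0.157). The call at 9 h was lost in a fit of only the compared arrays (0.0854), and that at 48 h after centring on housekeeping genes (0.124). Fitted with the replicate block, the 9 h call had a limma adjusted p of 2.8e-05 and the 12 h call one of 0.00126. The 24 h call then had 0.00146, and the 48 h call 0.00227.

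*Tsc22d3* rose late. It read 7.90, 7.60 and 7.37 at 0 h, 8.27, 8.24 and 8.16 at 24 h, 8.29, 8.53 and 7.89 at 48 h, 9.33, 8.60 and 8.34 at 96 h and 8.40, 8.85 and 8.44 at 144 h. All arrays of 24, 96 and 144 h lay above those of 0 h, while 1 of 48 h overlapped them. The rise was 1.13 at 96 h (SE 0.21, limma adjusted p = 3.7e-05) and 0.94 at 144 h (0.000424), and both calls held in every alternative run. At 24 h (0.60, 0.0471) and 48 h (0.61, 0.0244) the call was lost without array 2 or 3 of 0 h. It was also lost without any 1 of the 3 arrays of 24 h, or array 1 or 2 of 48 h (0.0623 to 0.224 over these fits). At 48 h it was lost too after centring on housekeeping genes (0.078) or with only the compared arrays (0.0604). With the replicate block the limma adjusted p was 0.00677 at 24 h and 0.00306 at 48 h.

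*Sgk1* followed a course of its own. From 8.51, 8.96 and 9.08 at 0 h it went to 9.10, 9.32 and 9.63 at 0.5 h and the high at 1 h described above, and then to 8.54, 8.10 and 8.42 at 2 h. Neither 0.5 h nor 2 h was called. Late in differentiation it was higher again, 9.48, 9.22 and 9.37 at 96 h (0.51, limma adjusted p = 0.0248) and 9.27, 9.65 and 9.51 at 144 h (0.63, 0.00585). Without array 1 of 0 h, the lowest of its group, both calls were lost (0.193 and 0.0759), and that at 96 h also without array 1 or 3 of 96 h (0.0837 and 0.0529), after centring on housekeeping genes (0.177) or with only the compared arrays (0.0582). With the replicate block 48 h was called too (0.41, adjusted p = 0.0377, 0.0859 without), and 96 h had an adjusted p of 0.00784.

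*Crispld2* rose at 48 h, from 3.91, 3.74 and 3.71 at 0 h to 4.51, 4.95 and 5.15 (1.09, SE 0.18, limma adjusted p = 1.47e-05), and stood lower again at 96 h (4.30, 4.82 and 4.13) and 144 h (4.32, 4.42 and 4.13). The later differences were 0.63 (0.00649) and 0.50 (0.0338). The first was lost without array 2 of 96 h (0.105) or after centring on housekeeping genes (0.0591), and the second without any of 4 arrays (2 and 3 of 0 h, 1 and 2 of 144 h; 0.0693 to 0.133), on renewed quantile normalization (0.0543) or on that centring (0.179). The probe set is of the cross-hybridising _x_at kind. Without such sets the 48 h difference was 0.28 (limma adjusted p = 0.154) and that at 144 h 0.23 (0.254). With the replicate block the adjusted p was 6.55e-06 at 48 h and 0.00418 at 96 h. Counted over members, 2 changed at 12 h, 3 at 24 h, and 4 each at 48, 96 and 144 h, against 2.82%, 14.0%, 26.7%, 32.6% and 28.4% of all genes.

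**Figure D3:**
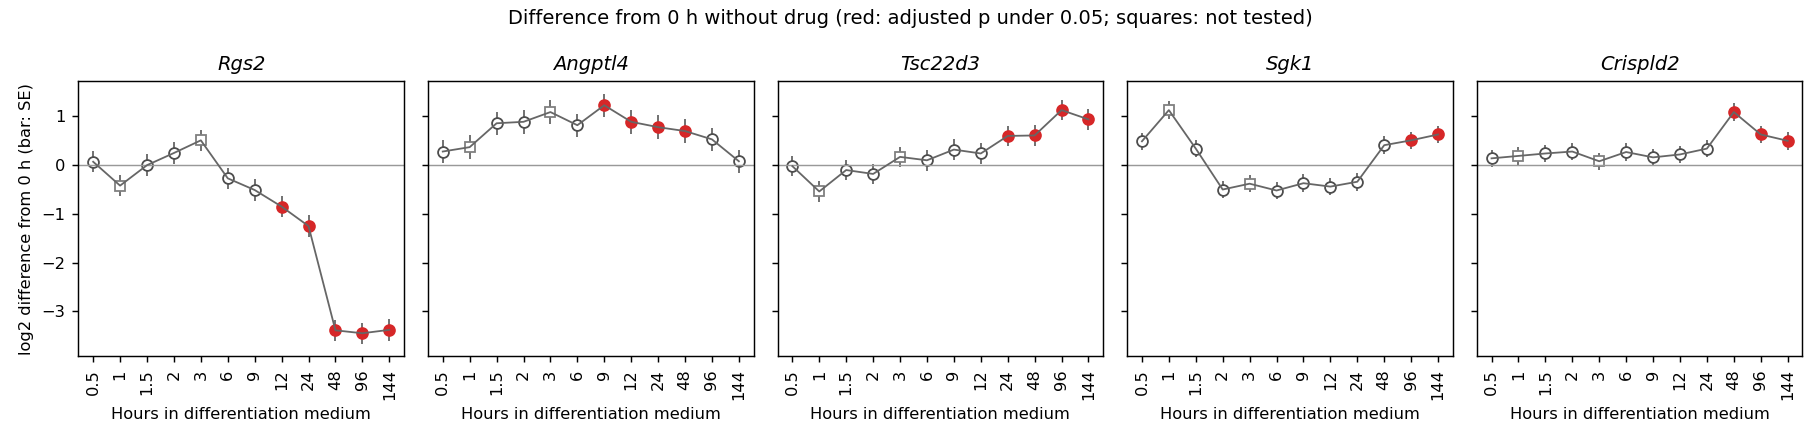
Difference from 0 h without drug (log2, with its SE) for the 5 members called by the F-test, against hours in differentiation medium on an evenly spaced axis. Red points have an adjusted p under 0.05 and squares mark 1 h and 3 h, which were not tested; Rgs2 falls by over 3 log2 units from 48 h, while the others move by at most 1.23.

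The genes most like each member over the 14 untreated group means, among genes spanning at least 1 log2 unit, differed between members. *Rgs2* was closest to *Lpl* (Pearson r = 0.983) and *C1ra* (0.979), *Tsc22d3* to *Wfs1* (0.967) and *Ube2g2* (0.959), and *Crispld2* to *Upk1b* (0.939) and *Mfsd2a* (0.933). *Fkbp5* was closest to *C1galt1* (0.941), *Sgk1* to *Prelid2* (0.790) and *Angptl4* to *Ccn4* (0.759). For *Slc10a6* the highest was *Plk2* at 0.419. Among the members themselves *Tsc22d3* and *Crispld2* gave 0.63 and *Rgs2* and *Crispld2* -0.74. These correlations describe 14 points that share arrays and carry no test.

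The receptor gene *Nr3c1* was not called with the drug. It differed with the drug by 0.20 at 1 h (limma adjusted p = 0.598, -0.09 requantiled) and 0.45 at 3 h (0.179, 0.17 requantiled). Of 10 measured genes of the receptor machinery, 1 rose at 1 h, *Ncoa3*, a coactivator, by 0.56 (adjusted p = 0.000775, but 0.18 and 0.476 requantiled), and by limma none passed at 3 h (1 before adjustment, at p under 0.05), when 24.2% and 30.9% of all genes rose. Other settings called a gene at 3 h: requantiled, *Fkbp4*, an Hsp90 co-chaperone, was lower (-0.56, adjusted p = 0.0233), and with the replicate block *Ncoa1*, a coactivator, was higher (0.54, 0.00399; 0.103 without). In differentiation *Nr3c1* fell, from 8.27, 8.37 and 8.71 at 0 h by 0.98 at 24 h (limma adjusted p = 0.00726), 1.78 at 48 h (9.58e-07), 1.67 at 96 h (2.06e-06) and 1.03 at 144 h (0.00177), over the times at which *Tsc22d3* rose. Over the same times *Hsd11b1*, whose enzyme regenerates active glucocorticoid from its inactive form, rose from a mean of 5.93 by 1.36 (limma adjusted p = 8.75e-07), 0.97 (7.48e-05), 2.11 (8.37e-12) and 2.79 (3.11e-15). Of the 10 machinery genes 2 rose and 2 fell at 24 h and at 48 h, 2 and 4 at 96 h, and 1 and 3 at 144 h. Of all genes 14.0%, 26.7%, 32.6% and 28.4% changed in either direction at those times.

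Many other glucocorticoid-responsive genes rose with the drug. The list was chosen with earlier results of these data known, so its counts and p-values with the drug are not independent evidence. Of 36 listed genes 17 rose by limma and none fell at 1 h (12 and 0 requantiled; at an unadjusted p under 0.05, 22 and 0), against 24.2% of all genes risen and 0.418% fallen. At 3 h 26 rose and none fell (23 and 1 requantiled; unadjusted, 28 and 1), against 30.9% and 3.42%. The list median was 0.53 and 1.25, beside 0.20 and 0.19 for all genes. The clock gene *Per1* rose from 5.65 to 7.84 at 1 h and from 5.40 to 9.79 at 3 h (4.39, SE 0.20, limma adjusted p = 1.01e-19), and the transcription factor gene *Cebpd* from 6.57 to 11.74 at 3 h (5.17, 7.49e-21). *Pdk4*, which restrains pyruvate oxidation, rose by 3.15 at 3 h (limma adjusted p = 6.94e-16). *Ddit4*, an inhibitor of mTORC1, differed by 2.44 at 1 h (8.51e-12). Its mean was 8.08 at 0 h, 6.58 at 1 h without the drug and 9.02 with it. Part of its difference thus lay in the lower untreated level. Of immediate early genes, which growth factors induce without new protein synthesis, 16 of 23 rose at 1 h and all 23 at 3 h (13 and 19 requantiled), with medians of 0.83 and 2.44. For 14 of the 36 responsive genes the effect was larger at 3 h than at 1 h by limma's interaction test and for none smaller (unadjusted, 20 and 0; requantiled, 15 and 0), a test that called 4.29% of all genes. Their differences ran from 0.88 (*Mt1*) to 2.78 (*Cebpd*), and *Per1* and *Pdk4* were among them. Of the 23 immediate early genes the effect was larger for 10 and smaller for none (unadjusted, 15 and 0, and requantiled, 12 and 0). The median of this difference was 1.11 in that list and 0.58 in the 36 responsive genes. Without the drug, the median difference from 0 h of the immediate early list was 0.48 at 1 h and -0.15 at 3 h. That of the responsive list was -0.04 and -0.03. The larger effect at 3 h in the immediate early list thus included a fall on the untreated side. Of the machinery genes none was called (unadjusted, 0 larger and 1 smaller, and requantiled, none). The part of the receptor in the members' levels was not tested.

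**Figure D4:**
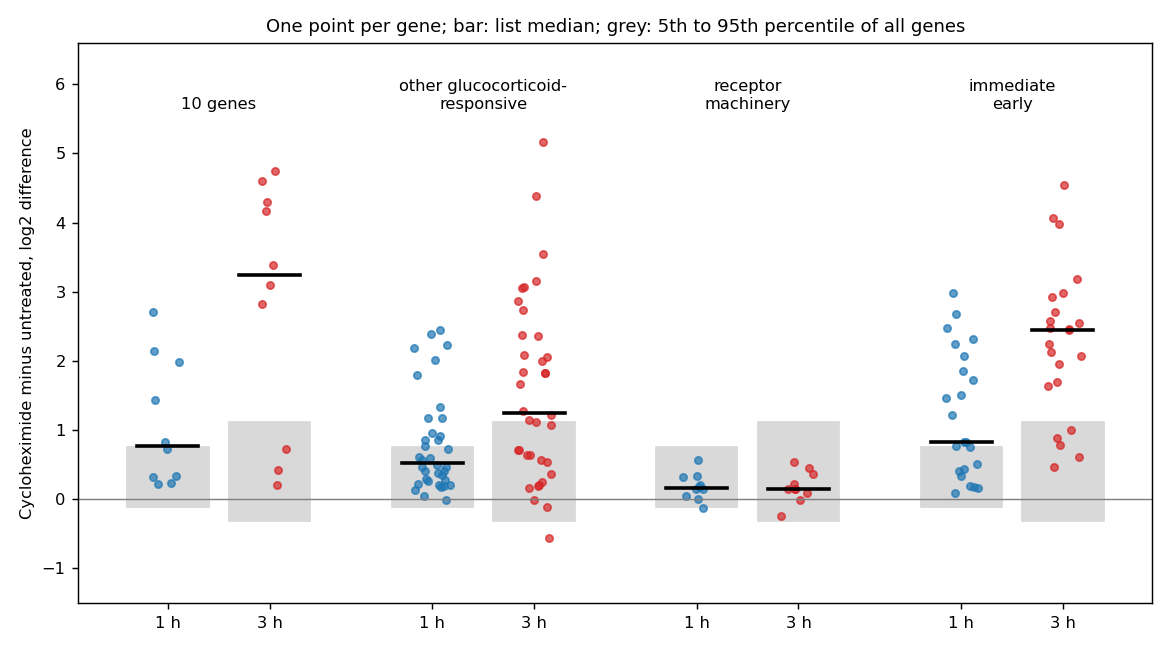
Cycloheximide minus untreated (log2 difference) at 1 h (blue) and 3 h (red), 1 point per gene, for the 10 members, 36 other glucocorticoid-responsive genes, 10 receptor machinery genes and 23 immediate early genes. Black bars are list medians (0.77 and 3.24, 0.53 and 1.25, 0.16 and 0.15, 0.83 and 2.44), and grey bands span the 5th to 95th percentile of all genes, -0.12 to 0.76 at 1 h and -0.31 to 1.11 at 3 h.

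Without the drug, counts of that list differed between times. Since earlier results of these data were known when it was chosen, these counts may not be independent evidence either. From 24 h before the medium change to 0 h, while *Rgs2* rose and *Fkbp5* fell, 16 of the 36 rose by limma and none fell (unadjusted, 20 and 2; requantiled, 16 and 2), against 7.26% and 5.86% of all genes, with *Tgm2* (2.11), *Gpx3* (2.01), *Fam107a* (1.55) and *Glul* (1.34) the largest. Myotube markers stood higher at 0 h too, 5 of 5 by their means, with *Myog* at 4.96, 6.42 and 5.53 before and 11.42, 9.32 and 9.71 at 0 h. Their part in these changes, that of *Rgs2* included, was not tested. At 24 h 4 rose and 8 fell, when 14.0% of all genes changed in either direction. At 48 h 6 rose and 15 fell (unadjusted, 6 and 18; requantiled, 6 and 14), against 12.4% and 14.3%. At 96 h 7 rose and 14 fell, and at 144 h 8 and 9, when 32.6% and 28.4% of all genes changed in either direction. At 48 h the cell cycle inhibitor *Cdkn1c* (4.15) and the muscle ubiquitin ligase *Trim63* (3.77) were among those that rose, and *Snai2* (-2.57), *Pdk4* (-2.18) and the ubiquitin ligase *Fbxo32* (-1.63) among those that fell.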

How the data were processed

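The deposited table holds log2 values made by the authors with RMA, per the submitters' processing notes, for 45101 probe sets on 48 arrays; the version and whether all arrays were processed together are not given in the sources used here. The 34945 probe sets listed with 1 gene covered 18193 genes, the brightest probe set on average standing for its gene. Differences were fitted with limma 3.58.1 in R 4.3.3 as 1 coefficient per group over all 48 arrays (32 residual degrees of freedom, eBayes defaults, two-sided, Benjamini-Hochberg over 18193 genes, called at 0.05), a script tested on simulated data. "Requantiled" means after quantile normalization of the 48 arrays again. Arrays of a group correlated at 0.9818 to 0.9955 and none were identical; 3 arrays per group limit the precision, and p-values measure the spread between passages. Samples with the same replicate number deviated together in every pair for 0.5, 1.5, 2, 6, 9, 12, 24, 48 and 96 h against 0 h (r 0.13 to 0.72), and the series text names successive passages. The main p-values and the F-test carry no block. At those times blocked values are given for the members' main calls that varied between runs and for members' calls gained with the block. All 10 members are named, with up to 4 called genes of a list per direction, *Nr3c1*, and the genes of closest pattern. *Mt1*, *Fkbp4*, *Ncoa1* and the single markers were named after their values were seen. The members and lists were chosen with earlier results of these data known. Of the lists, 2 markers and 4 machinery genes were not analysed here. Promoters came from RefSeq; *Zbtb16* and *Angptl4* had no window. Alternatives were a replicate block, renewed quantile normalization, centring on 12 housekeeping genes, the mean of probe sets, leaving out _s_at and _x_at probe sets, a filter at a mean of 5, only the arrays compared, trend and robust moderation, and leaving out each array.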

Additional observations from a re-analysis of the deposited data

Results flagged for a closer look

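For 14 of the 36 other glucocorticoid-responsive genes the cycloheximide effect was larger at 3 h than at 1 h by limma's interaction test, adjusted over 18193 genes, of which 4.29% were called. The same held for 10 of the 23 immediate early genes, a list whose untreated median difference from 0 h itself went from 0.48 at 1 h to -0.15 at 3 h. Of those 14, the genes named by rule were *Cebpd*, *Per1* and *Pdk4*, and *Ampd3*, named after its value was seen, differed by 2.12 (SE 0.23, adjusted p = 3.71e-08). For *Cebpd* the effect was 2.39 log2 units at 1 h and 5.17 at 3 h, a difference of 2.78 (SE 0.30, adjusted p = 2.97e-08). For *Per1* it was 2.19 and 4.39, a difference of 2.20 (SE 0.28, adjusted p = 8.33e-07). For *Pdk4* it was 1.17 and 3.15, a difference of 1.98 (SE 0.27, adjusted p = 4.49e-06). With 3 arrays a group, no group was tested for single outlying arrays. Because the list was chosen with earlier results of these data known, these counts and p-values are not independent evidence.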

How the results depend on the processing

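The counts of members at least 2-fold higher with the drug were 4 at 1 h and 7 at 3 h in every fit that left out an array, and 4 at 3 h when genes with a mean under 5 were left out, since fewer members then remained. With the replicate block the number called was 4 in place of 2 at 0 h against 24 h before, where replicate numbers paired only weakly (r 0.04 to 0.31). It was 1 in place of 0 at 1.5, 2 and 6 h, and 5 in place of 4 at 48 and 96 h. At 144 h (r -0.22 to 0.24) the block changed no count. Without _s_at and _x_at probe sets the counts were 0 in place of 1 at 9 h, 1 in place of 2 at 12 h, 2 in place of 4 at 48 h and 3 in place of 5 by the F-test. *Angptl4* then rests on 1453410_at, near the bottom of the range (untreated mean 2.97). Its differences were -0.01 at 9 h (limma adjusted p = 0.996), -0.00 at 12 h (0.998), 0.04 at 24 h (0.836) and -0.01 at 48 h (0.945). Losses on so dim a probe set cannot decide on the gene. *Crispld2* then rests on another set, and its calls at 48 h and at 144 h (0.23, 0.254) were lost. Fitting only the arrays compared gave 0 at 9 h, lost *Tsc22d3* at 48 h and *Sgk1* at 96 h, and called *Fkbp5* at 24 h (-0.35, limma adjusted p = 0.0418). Quantile normalization again and the mean of probe sets each gave 1 at 12 h, and the latter called *Zbtb16* at 24 h (0.22, limma adjusted p = 0.0302). Centring on housekeeping genes gave 2 at 48 h and 2 at 96 h, each in place of 4. At 144 h it lost *Crispld2* and called *Fkbp5* (-0.43, limma adjusted p = 0.0273). The cause was not tested. Leaving out single arrays gave 1 to 2 members at 0 h against 24 h before, 0 to 1 at 1.5 h, 0 at 0.5, 2 and 6 h, 1 at 9 h, 0 to 2 at 12 h, 1 to 2 at 24 h, 2 to 3 at 48 h, 3 to 4 at 96 and 144 h, and 5 by the F-test.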
